A study of Homo sapiens with 12 samples.

Results

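The Wnt ligands, their receptors and co-receptors, the secreted and intracellular antagonists and the nuclear effectors were followed in MDA-MB-231 cells, an established human triple-negative breast cancer (TNBC) line. Members were taken by symbol: the WNT, FZD, DKK1 to DKK4 and SFRP families, together with LRP5, LRP6, AXIN1, AXIN2, LEF1, TCF7, TCF7L1, TCF7L2, NKD1, NKD2, RNF43 and ZNRF3. Of 19907 gene symbols, 44 were members, and 41 of these had enough reads to be tested. Fold changes were read for the 29 members with a mean normalized count of at least 20 over the 12 libraries, and 15 members lay below that level. The 29 were 9 of 17 ligands, 8 of 9 FZD receptors, both LRP co-receptors, 2 of 7 secreted antagonists, 4 of 5 intracellular or membrane inhibitors and all 4 transcription factors.

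RNA-seq was carried out in 4 groups with 3 libraries each. Cells carried either wild-type glucocorticoid receptor (wt-GR) or GR with Ser134 replaced by alanine on both alleles by CRISPR (S134A-GR, clone #1), and the comparison of the lines asked what phosphorylation of this serine contributes to gene expression. Every culture was starved for 18 h in IMEM with 1% DCC (charcoal-stripped serum), so no group received an added GR ligand, and then treated for 6 h with vehicle or with 10 ng/mL of TGFβ1. The wt-GR line was itself a clone, recovered untargeted from the same CRISPR experiment. Each genotype was therefore 1 clone, and genotype cannot be told apart from other differences between the clones. Nothing in the labels states that the 3 libraries of a group came from separate cultures, so the p-values measure the spread between these libraries, which may be technical.

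In the Wnt pathway, a secreted Wnt protein binds a Frizzled receptor, and in the β-catenin branch also LRP5 or LRP6, which halts the destruction of β-catenin that AXIN scaffolds. β-catenin then works with LEF1 and the TCF proteins at target genes, while other ligands, WNT5A and WNT5B among them, are best known for β-catenin-independent signaling that bears on cell movement. DKK1 blocks the LRP co-receptors, and RNF43 and ZNRF3 remove Frizzled receptors from the cell surface. In TNBC the pathway is studied for its part in invasion and stem-like growth.

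Library totals recovered from the deposited values lay between 56.4 and 129.8 (1e6 reads), on average 93.5. That average is above the average number of sequenced reads per sample that the labels give, so a recovered read may not be 1 sequenced fragment, and the reason was not tested. A floor of 3 reads corresponded to 2.15 to 4.89 normalized counts, for counting error only. Each library differed from the mean of the others of its group by a median of 0.055 to 0.10 on the log2 scale. The markers chosen for this line, VIM and ZEB1 for its mesenchymal state, CD44, EGFR and the GR gene NR3C1, were all present, ESR1 and CDH1 stayed near the floor (0 to 7.32 and 1.05 to 12.5 normalized counts), and the leukocyte marker PTPRC lay between 0 and 9.80. ERBB2, EPCAM and the endothelial marker PECAM1 were not absent, with 9059, 690 and 1097 normalized counts on average. EPCAM differed between the vehicle-treated lines by −1.44 on the log2 scale, S134A-GR being lower, and its part in the Wnt differences was not tested. Gene counts cannot show the edited base of NR3C1, whose own level was lower in S134A-GR cells by −0.41 under vehicle (limma, adjusted p = 0.00012).

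Promoters of 3 members with results below are shown as examples: LRP5 differed most firmly between the lines, DKK1 responded to TGFβ1 more strongly in S134A-GR cells, and FZD1 fell with TGFβ1 in both lines. Each is the stretch of 250 bases before the start of the gene in RefSeq (GRCh38.p14), 5′ to 3′ on the plus strand, with the SMAD box CAGAC or its reverse complement GTCTG in capitals.
DKK1, chr10:52314031-52314280: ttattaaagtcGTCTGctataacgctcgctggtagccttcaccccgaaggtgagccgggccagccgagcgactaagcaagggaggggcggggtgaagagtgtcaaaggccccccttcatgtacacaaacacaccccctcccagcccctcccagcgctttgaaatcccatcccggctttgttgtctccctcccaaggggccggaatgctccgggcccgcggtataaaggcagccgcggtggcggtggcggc
FZD1, chr7:91264183-91264432: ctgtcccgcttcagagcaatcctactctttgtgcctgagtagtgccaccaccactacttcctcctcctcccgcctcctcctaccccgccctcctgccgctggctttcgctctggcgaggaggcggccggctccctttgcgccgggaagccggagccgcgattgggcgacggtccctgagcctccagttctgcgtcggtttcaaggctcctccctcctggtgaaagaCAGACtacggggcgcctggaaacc
LRP5, chr11:68312341-68312590: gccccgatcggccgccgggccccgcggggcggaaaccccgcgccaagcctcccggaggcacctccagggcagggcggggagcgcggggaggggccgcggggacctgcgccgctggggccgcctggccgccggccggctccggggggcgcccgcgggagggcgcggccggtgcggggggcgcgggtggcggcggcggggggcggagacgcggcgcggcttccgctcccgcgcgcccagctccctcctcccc
The DKK1 and FZD1 windows each held 1 SMAD box and the LRP5 window, with a GC content of 87.2%, held none. Of the 29 members, 18 had an entry in the promoter table, and 6 of these (33.3%) held a SMAD box, against 38.0% of all 35116 promoters of the same length. A TCF/LEF core spelled CTTTGAT (both strands) was in 0 of the 18 and in 2.26% of all promoters. Other spellings of it were not searched, and CTTTGAA stands unmarked in the DKK1 window. A core of the GR element (AGAACA, both strands) was in 3 of the 18, those of LEF1, RNF43 and WNT8B, and in 12.4% of all. The windows of WNT5B, FZD8, TCF7L1 and WNT10A, not printed here, held neither these cores nor a SMAD box. These letter matches describe the windows and say nothing of binding.

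Levels differed widely within each family. Compared per kb of exon, as the mean normalized count over the 12 libraries, LRP5 stood at 3100, DKK1 at 2709, FZD6 at 2677 and FZD2 at 1832, above all other members. WNT5A was the leading ligand at 622 per kb, ahead of WNT7B at 503, WNT5B at 351 and WNT9A at 320, and the next ligand, WNT10B, stood at only 53.3. The order of the leading ligands was not fixed, since WNT7B exceeded WNT5A in vehicle-treated S134A-GR cells, with group means of 796 and 514 per kb, and WNT5B and WNT5A lay at 539 and 782 in wt-GR cells under TGFβ1. The order of LRP5, DKK1 and FZD6 also changed between groups: LRP5 led with 5360 per kb in vehicle-treated wt-GR cells and was the lowest of these 3 in S134A-GR cells under TGFβ1, with 1433 against 3425 for DKK1 and 2666 for FZD6. Among the transcription factors TCF7L2 stood at 560 and LEF1 at 167 per kb, TCF7 and TCF7L1 at 26.7 and 16.2. WNT10A was the lowest of the 29 at 7.42 per kb and the nearest to the limit, with a mean of 21.7 normalized counts, while NKD1 lay just outside it at 18.6.

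**Figure D1:**
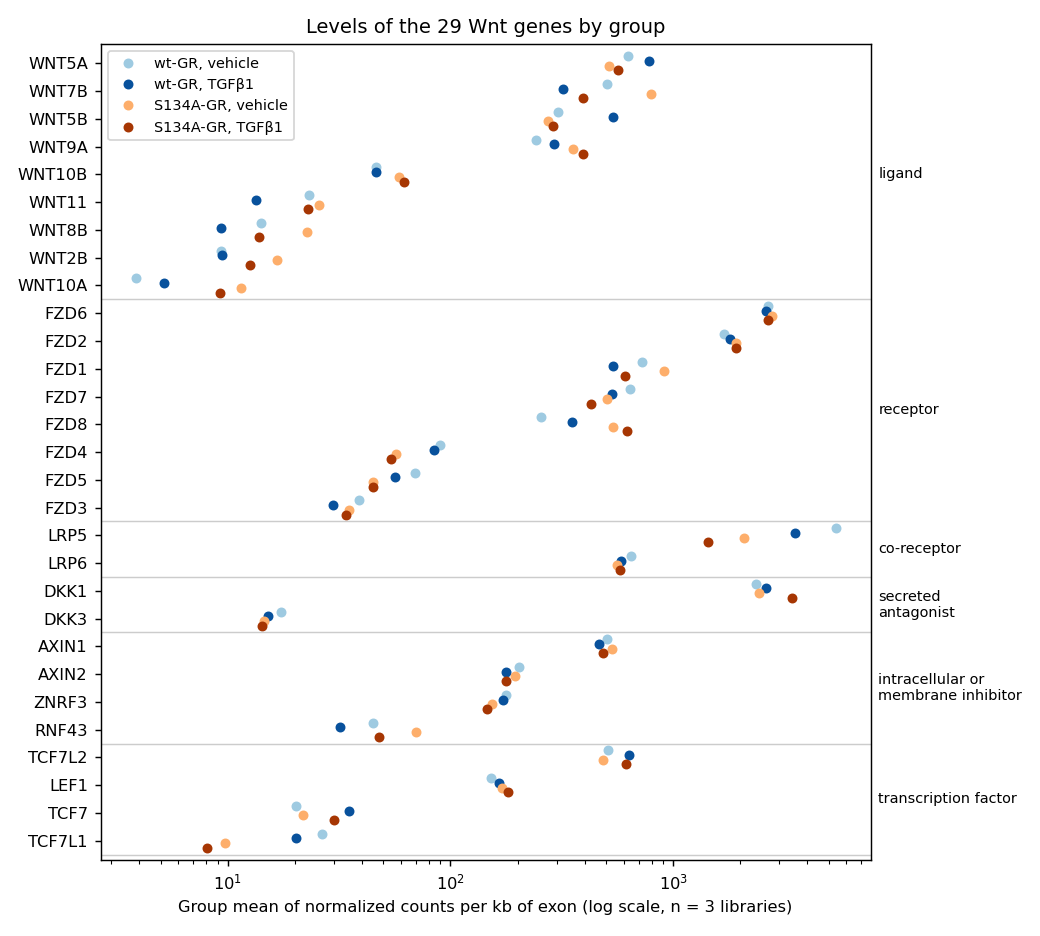
Group means of the normalized count per kb of exon (log scale, horizontal axis) for the 29 Wnt genes, ordered by role and by level, with 1 point for each of the 4 groups (n = 3 libraries). LRP5 shows the widest gap between groups among the abundant members, from 5360 per kb in vehicle-treated wt-GR cells to 1433 in S134A-GR cells under TGFβ1, while FZD6 stays between 2608 and 2765.

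S134A-GR cells had less LRP5 and TCF7L1 and more FZD8 and WNT7B than wt-GR cells, and over all members as many were higher as lower. Under vehicle the S134A-GR line had 8 of the 29 higher and 8 lower (27.6% each; limma, adjusted p under 0.05), against 30.0% and 31.8% of the 14425 genes with the same minimum level, so the members' share was close to that of all genes. Differences of at least 1 on the log2 scale were found for 4 members (13.8%), LRP5, TCF7L1, FZD8 and WNT10A, against 7.80% of all genes. Under TGFβ1 the counts were again 8 higher and 8 lower, against 28.0% and 30.7% of all genes, and 2 members (6.90%), LRP5 and TCF7L1, passed the 1 log2 limit, against 6.82%. The members' median difference was 0.051 under vehicle and 0.055 under TGFβ1, and that of all genes 0.0032 and 0.0051. These comparisons share no library, but each shares its libraries with the TGFβ1 comparisons that follow.

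LRP5, which encodes a co-receptor for the β-catenin branch (chr11:68312591-68449275, plus strand), gave 34217, 33006 and 32187 normalized counts in vehicle-treated wt-GR cells and 13171, 12751 and 12517 in vehicle-treated S134A-GR cells. With TGFβ1 it gave 22465, 21492 and 21552 in wt-GR cells and 9569, 8749 and 8259 in S134A-GR cells. No library of either line reached into the range of the other, and within each line the TGFβ1 libraries all lay under the vehicle libraries. The level in S134A-GR cells was 2.59-fold lower under vehicle (log2 difference −1.37, SE 0.047, limma, adjusted p = 5.65e-11) and 2.46-fold lower under TGFβ1 (−1.30, adjusted p = 8.77e-11). TGFβ1 lowered LRP5 1.52-fold in wt-GR cells and 1.45-fold in S134A-GR cells, and the responses differed by 0.07 (95% interval −0.08 to 0.21, adjusted p = 0.792). Beside this, of 29 other expressed genes within 1 Mb of LRP5, 19 were lower in vehicle-treated S134A-GR cells and 0 were higher, with a median of −0.30. Under TGFβ1 20 of them were lower and 2 higher. Over all genes of this level 31.8% were lower and 30.0% higher under vehicle, and 30.7% and 28.0% under TGFβ1. The part of the region in the LRP5 difference was not tested. In these bulk libraries, less RNA per cell and fewer cells with the transcript cannot be told apart. The other co-receptor, LRP6, had group means from 5784 to 6723 and passed the limma test in none of the comparisons. Its vehicle difference between the lines, −0.20 with an adjusted p of 0.072, was called by DESeq2 (−0.22, adjusted p = 0.0251) and by edgeR (adjusted p = 0.0479).

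FZD8, a Frizzled receptor (chr10:35638247-35642296, minus strand), was the reverse case. Its normalized counts were 925, 1025 and 1137 in vehicle-treated wt-GR cells and 2243, 2005 and 2241 in vehicle-treated S134A-GR cells. Under TGFβ1 they were 1414, 1489 and 1355 against 2447, 2432 and 2637. Every S134A-GR library lay above every wt-GR library. The line difference was 2.10-fold under vehicle (log2 1.07, SE 0.074, limma, adjusted p = 3.52e-08) and 1.77-fold under TGFβ1 (0.82, adjusted p = 5.44e-07). All 4 expressed neighbors within 1 Mb were also higher in S134A-GR cells, with a median of 0.31 under vehicle, and the part of the region was not tested. Around some other members with results given by library, neighbors went in both directions. Under vehicle 3 of 20 were higher and 11 lower around WNT7B, and 1 of 9 and 5 around FZD1. The counts were 6 of 24 and 10 around TCF7L1, 11 of 38 and 15 around WNT10A, and 2 of 10 and 3 around WNT5B. Neighbors leaned to a single side around further members. The counts were 0 of 10 higher and 7 lower around FZD5, 1 of 11 and 8 around WNT11, 27 of 34 and 1 around AXIN1, and 14 of 24 and 2 around WNT8B.

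TCF7L1, a TCF family member best known as a repressor of Wnt target genes (chr2:85133392-85310387, plus strand), was low throughout. Under vehicle it gave 124, 118 and 112 normalized counts in the wt-GR line and 58.4, 35.5 and 34.7 in the S134A-GR line. With TGFβ1 the values were 104, 87.1 and 77.4 and then 33.3, 42.5 and 31.5. The lines did not overlap, and the difference was −1.48 under vehicle (SE 0.23, limma, adjusted p = 7.56e-05) and −1.30 under TGFβ1 (adjusted p = 0.000253). The TGFβ1 responses of TCF7L1 were −0.40 in wt-GR and −0.23 in S134A-GR cells, neither past the threshold. LEF1, TCF7 and TCF7L2, the other nuclear effectors, did not pass the test between the lines under either treatment.

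WNT10A, a ligand of the β-catenin branch (chr2:218880852-218899581, plus strand), had the largest fitted line difference, and its size and call depended on single libraries. Its normalized counts under vehicle were 0, 19.0 and 14.7 for the wt-GR line and 46.2, 22.3 and 32.1 for the S134A-GR line, and the library at 0 was the shallowest of the 12. The fitted log2 difference was 2.28 (SE 0.81, limma, adjusted p = 0.0301), while the group means differed 2.98-fold. Without the library at 0 the fitted difference was 0.90 (limma, adjusted p = 0.0517). The call was also lost without S134A-GR vehicle replicate 1 (2.03, adjusted p = 0.097) or replicate 3 (2.28, adjusted p = 0.0653), and in a fit of only the groups compared (adjusted p = 0.122). Under TGFβ1 the values were 11.1, 14.6 and 19.4 against 28.5, 28.3 and 23.6 (0.82, adjusted p = 0.439). The ranges of the lines did not touch under either treatment, at levels of at most 46.2 normalized counts.

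**Figure D2:**
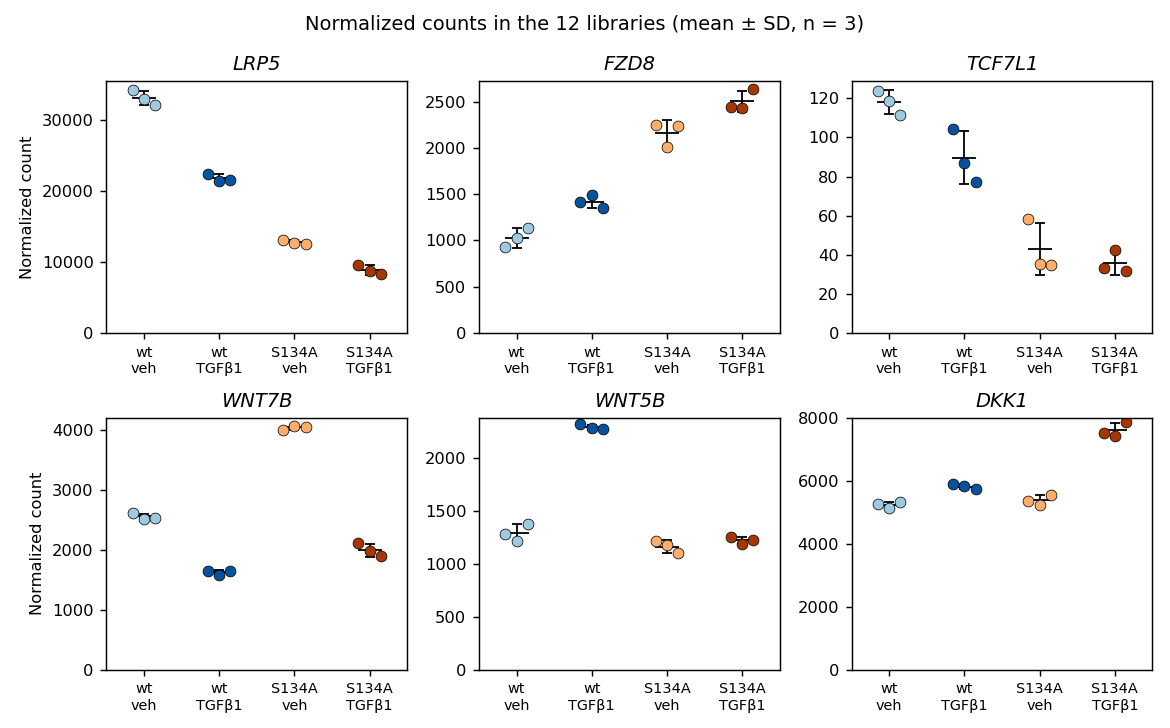
Normalized counts (vertical axes, starting at 0) of 6 Wnt genes in each of the 12 libraries, as points, with the mean and SD of each group of 3. LRP5 and TCF7L1 are lower and FZD8 higher in every S134A-GR library, WNT5B is raised only in the wt-GR libraries with TGFβ1, at 2265 to 2314, and DKK1 is highest in the S134A-GR libraries with TGFβ1, at 7434 to 7876.

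The other ligands that differed between the lines did so by less than 1 on the log2 scale. WNT7B (chr22:45920366-45977162, minus strand), a ligand that can act through β-catenin, was higher in S134A-GR cells by 0.66 under vehicle and 0.29 under TGFβ1. WNT9A was higher by 0.56 and 0.43, with group means of 965 and 1415 under vehicle. WNT2B was higher by 0.82 under vehicle (adjusted p = 0.000914, limma), with 116 ± 18.1 against 206 ± 40.4 normalized counts (SD, n = 3); under TGFβ1 its difference of 0.42 had an adjusted p of 0.0536, and of 0.041 with DESeq2. Of its exon bases 21.5% lie opposite to those of ST7L, and since the strand setting of the counting is not given in the sources used here, reads of the pair cannot be told apart. WNT5A, the most abundant ligand, was lower by −0.28 and −0.46. WNT11 passed the limma test under TGFβ1 (0.80, adjusted p = 0.0348) and not under vehicle (0.19, adjusted p = 0.609). Under TGFβ1 the values were 43.3, 30.8 and 21.4 in wt-GR and 60.9, 59.7 and 42.9 in S134A-GR cells, so the groups overlapped, and the call was lost when any of 4 libraries was left out.

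Among the receptors, FZD4, FZD5 and FZD7 were lower in S134A-GR cells, by −0.65, −0.62 and −0.35 under vehicle and by −0.65, −0.33 and −0.32 under TGFβ1. FZD4, which is also the receptor for the ligand norrin, had group means of 660 ± 46.2 in the wt-GR line and 420 ± 35.9 in the S134A-GR line under vehicle (SD, n = 3). All 5 of its expressed neighbors within 1 Mb were lower too, with a median of −0.93, and 18.9% of its exon bases lie opposite to PRSS23. Under vehicle 7 of 10 neighbors of FZD5 were lower and 0 higher, with a median of −0.41. Of 18 neighbors of FZD7, 11 were lower and 2 higher, with a median of −0.24. The part of these regions was not tested. FZD1 was higher by 0.32 and 0.18, and FZD2 by 0.17 and 0.08, the last of which lost its call when any of 11 libraries was left out. FZD6, the most abundant receptor, and FZD3 were not called between the lines.

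Of the inhibitors, RNF43, a ubiquitin ligase that removes Frizzled receptors, was higher in S134A-GR cells by 0.63 under vehicle and 0.58 under TGFβ1. Its group means under vehicle were 285 ± 22.4 and 443 ± 56.5 normalized counts (SD, n = 3). As 68.4% of its exon bases are shared with another gene on the same strand, its values are uncertain. ZNRF3, the related ligase, was lower by −0.20 and −0.23. AXIN1 and AXIN2, the scaffolds of the complex that destroys β-catenin, did not pass the test; AXIN2 is itself a widely used readout of β-catenin activity, and its line differences were −0.07 (95% interval −0.22 to 0.09) under vehicle and −0.01 (−0.17 to 0.14) under TGFβ1, with 25.3% of its exon bases shared with another gene on the same strand. DKK3 did not pass it either, and 47.5% of its exon bases lie opposite to USP47.

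**Figure D3:**
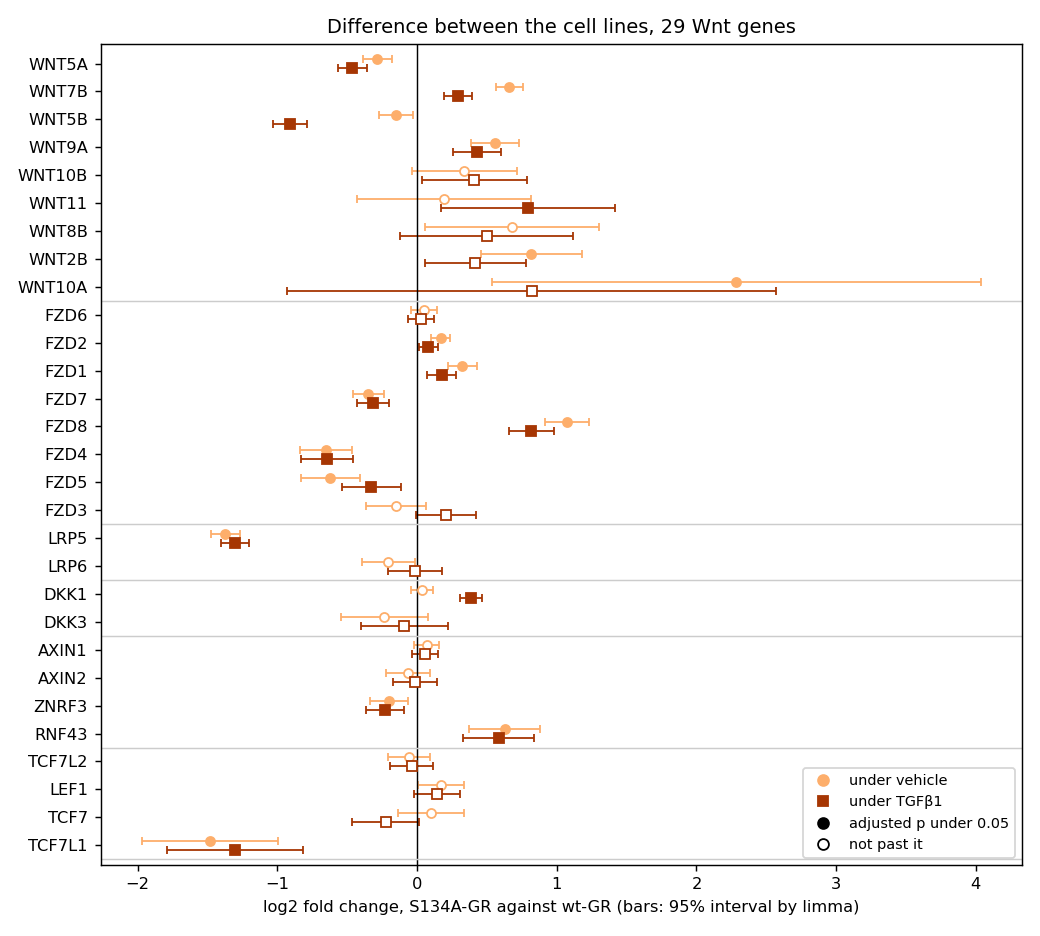
Difference between S134A-GR and wt-GR cells as a log2 fold change (horizontal axis) with its 95% interval by limma for the 29 Wnt genes, under vehicle (circles) and under TGFβ1 (squares), filled where the adjusted p was under 0.05. LRP5 and TCF7L1 lie furthest to the left, FZD8 to the right of most members under both treatments, and WNT10A has the widest interval, from 0.53 to 4.03 under vehicle.

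In wt-GR cells TGFβ1 raised WNT5B, TCF7, FZD8, TCF7L2, WNT5A, WNT9A and DKK1 and lowered WNT7B, LRP5, RNF43, FZD1, FZD3, FZD5 and FZD7. These are 7 members that rose and 7 that fell (24.1% each), against 14.0% and 12.1% of all genes, and 0 of those called reached 1 on the log2 scale by limma, DESeq2 or edgeR, against 1.93%; at an unadjusted p under 0.05 the number was also 0. In S134A-GR cells 3 members rose (10.3%) and 6 fell (20.7%), against 12.7% and 10.8% of all genes, and 1 member, WNT7B, passed the 1 log2 limit (3.45%), against 1.55%. The median absolute change of the members was 0.30 in wt-GR and 0.15 in S134A-GR cells, beside 0.13 and 0.12 over all genes. The difference between the lines' responses was tested directly, and 3 of the 29 members passed (10.3%), against 0.527% of all genes. These were WNT5B, DKK1 and WNT7B.

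WNT5B, a close relative of WNT5A (chr12:1529891-1647212, plus strand), gave the largest of these. Its normalized counts in wt-GR cells were 1281, 1218 and 1375 under vehicle and 2314, 2275 and 2265 under TGFβ1. In S134A-GR cells they were 1211, 1175 and 1098 under vehicle and 1250, 1185 and 1222 under TGFβ1. The wt-GR libraries with TGFβ1 stood above all others, and in S134A-GR cells vehicle and TGFβ1 overlapped. WNT5B rose 1.77-fold in wt-GR cells (log2 0.82, SE 0.057, limma, adjusted p = 1.16e-07), while its change in S134A-GR cells was 0.07 (95% interval −0.05 to 0.19, adjusted p = 0.459). The response in S134A-GR minus that in wt-GR cells was −0.75 (SE 0.081, adjusted p = 0.000909), and this call was kept under every setting run. The lines differed by −0.91 under TGFβ1 but by only −0.15 under vehicle, and the latter call (adjusted p = 0.0374) was lost when any of 4 libraries was left out.

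DKK1, the secreted antagonist of LRP5 and LRP6 (chr10:52314281-52318042, plus strand), showed the opposite order. In wt-GR cells it gave 5261, 5147 and 5336 normalized counts under vehicle and 5890, 5826 and 5747 under TGFβ1. In S134A-GR cells the values were 5363, 5244 and 5566 under vehicle and 7514, 7434 and 7876 under TGFβ1. Both lines overlapped under vehicle, and with TGFβ1 every S134A-GR library lay above every wt-GR library. DKK1 rose 1.11-fold in wt-GR cells (log2 0.15, limma, adjusted p = 0.00891) and 1.41-fold in S134A-GR cells (0.50, adjusted p = 2.62e-07). The responses differed by 0.35 (SE 0.051, adjusted p = 0.0093), also under every setting run. Of its exon bases 10.2% lie opposite to PRKG1-AS1, which also spans the promoter stretch printed above. All 3 expressed neighbors of DKK1 within 1 Mb were higher in S134A-GR cells under TGFβ1, with a median of 0.49, beside 0.39 for DKK1. Under vehicle 2 of the 3 were higher. The part of the region in the DKK1 difference was not tested.

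WNT7B fell in both lines, and further in S134A-GR cells. Its normalized counts in wt-GR cells were 2612, 2525 and 2542 under vehicle and 1650, 1585 and 1641 under TGFβ1. In S134A-GR cells they were 4004, 4078 and 4054 under vehicle and 2114, 1977 and 1894 under TGFβ1. The vehicle libraries of S134A-GR cells stood highest, and no pair of groups overlapped. TGFβ1 lowered it 1.57-fold in wt-GR cells (log2 −0.65, limma, adjusted p = 1.25e-07) and 2.03-fold in S134A-GR cells (−1.02, adjusted p = 1.55e-09). The difference in response was −0.37 (SE 0.065, adjusted p = 0.0256), and it missed the threshold when any of 9 libraries was left out, with adjusted p up to 0.0944 and values between −0.38 and −0.33 in those fits.

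Of the other ligands, WNT5A and WNT9A passed the test in wt-GR cells. WNT5A rose by 0.32 in wt-GR cells, from 4476 ± 242 to 5596 ± 176 normalized counts (SD, n = 3), and its change of 0.14 in S134A-GR cells had an adjusted p of 0.0524 by limma, which became 0.0275 with DESeq2 and 0.0451 with edgeR. WNT9A rose by 0.28 in wt-GR cells, a call lost when any of 3 libraries was left out. The difference in response was not past the threshold for either (−0.18 and −0.13, adjusted p = 0.418 and 0.758, limma). WNT8B, WNT10A, WNT10B, WNT11 and WNT2B were not called by limma in either line. Some of these low ligands had large fitted changes with wide errors: WNT10A 1.20 (SE 0.81) and WNT11 −0.77 (SE 0.29) in wt-GR cells, and WNT8B −0.74 (SE 0.29) in S134A-GR cells, with adjusted p of 0.351, 0.0781 and 0.0946. The group means of WNT10A in wt-GR cells differed only 1.34-fold.

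FZD1, FZD7, RNF43 and LRP5 fell in both lines. FZD1 fell by 0.43 in wt-GR and by 0.57 in S134A-GR cells, with group means of 4984 and 3710 and then of 6243 and 4192 normalized counts. FZD7 fell by 0.27 and by 0.24, and RNF43 fell by 0.50 and by 0.54. FZD3 and FZD5 fell in wt-GR cells, by 0.40 and by 0.30, and their changes in S134A-GR cells were −0.04 and −0.0037; the differences in response were not past the threshold (adjusted p = 0.444 and 0.542, limma). The FZD5 call in wt-GR cells was lost when any of 9 libraries was left out. FZD8 rose by 0.47 in wt-GR cells, and its change of 0.21 in S134A-GR cells had an adjusted p of 0.0609, which became 0.0156 with DESeq2.

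The nuclear effectors TCF7 and TCF7L2 were raised in both lines. TCF7 rose by 0.79 in wt-GR cells, from 204 ± 1.82 to 353 ± 14.3 normalized counts, and by 0.46 in S134A-GR cells, from 219 ± 20.4 to 303 ± 35.7 (SD, n = 3). TCF7L2 rose by 0.32 and 0.34. LEF1 changed by 0.12 and 0.09, neither past the threshold. Of the destruction complex scaffolds, AXIN2 had changes of −0.19 and −0.14 with adjusted p of 0.0847 and 0.227, and AXIN1 passed the test in S134A-GR cells (−0.13), with −0.12 and an adjusted p of 0.0641 in wt-GR cells. The S134A-GR call was lost when any of 9 libraries was left out.

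**Figure D4:**
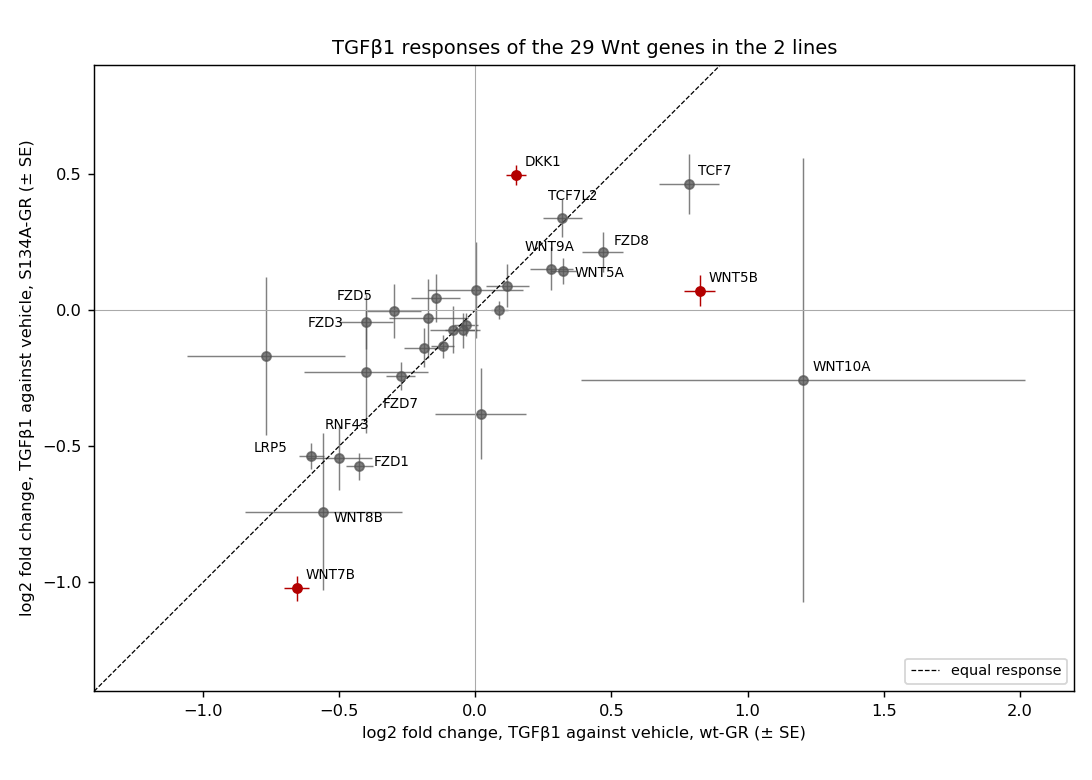
Log2 fold change of TGFβ1 against vehicle in wt-GR cells (horizontal axis) and in S134A-GR cells (vertical axis) for the 29 Wnt genes, with standard errors from limma and a dashed line of equal response. The 3 red points passed the test of the difference: WNT5B lies below the line at 0.82 and 0.07, WNT7B below it at −0.65 and −1.02, and DKK1 above it at 0.15 and 0.50.

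The 15 members below a mean of 20 normalized counts were 8 ligands, FZD9, 5 secreted antagonists and NKD1. NKD1, an inhibitor of Dishevelled that is often used as a readout of β-catenin activity, gave 16.3, 6.34 and 13.7 normalized counts in vehicle-treated wt-GR cells and 48.9, 46.9 and 39.7 under TGFβ1. In S134A-GR cells it gave 1.89, 4.05 and 9.80 under vehicle and 9.51, 15.2 and 10.7 under TGFβ1, so that the wt-GR libraries with TGFβ1 stood apart from all others. Group means of NKD1 were higher under TGFβ1 in both lines, 12.1 and 45.2 in wt-GR and 5.25 and 11.8 in S134A-GR cells. No difference in response was read at this level. WNT3 ranged from 3.80 to 21.1 in 11 libraries and reached 78.2 in 1 S134A-GR vehicle library. WNT4 reached 23.3, FZD9 18.9, WNT3A 13.2 and SFRP1 12.7 normalized counts in their highest library. SFRP5, SFRP4, SFRP2, DKK2, WNT2, WNT8A, WNT7A, WNT16 and WNT1 stayed at or under 8.42 in every library. The 4 SFRP antagonists measured, which bind Wnt proteins directly, thus lay near the floor in this line.

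The rest of the pathway was counted over a list of 59 genes for Wnt secretion, alternative receptors, the cytoplasmic machinery, nuclear partners and planar polarity, of which 48 reached a mean of 20. Under vehicle the S134A-GR line had 15 of these higher and 21 lower (31.2% and 43.8%, against 30.0% and 31.8% of all genes), and under TGFβ1 13 higher and 22 lower (27.1% and 45.8%, against 28.0% and 30.7%). ROR1, a receptor for WNT5A, was lower by −1.25 and −1.13, from 1839 ± 175 to 773 ± 68.8 normalized counts under vehicle (SD, n = 3). DAAM2, a formin that acts downstream of Dishevelled, was lower by −1.20 and −1.76, at group means of at most 75.3. The R-spondin receptor genes LGR4 and LGR5 were lower by −1.17 and −0.64 and by −0.95 and −1.42. LGR6 was lower by −1.23 under TGFβ1, and its vehicle difference of −0.73 had an adjusted p of 0.163 (limma). KREMEN2, a partner of DKK1 in the removal of LRP co-receptors, was higher by 1.05 and 0.93, and the co-repressor TLE2 by 1.05 and 0.89. CSNK1E, a kinase of Dishevelled, was higher under vehicle (1.53, adjusted p = 0.02, limma), with 48.5 ± 29.4 against 118 ± 3.39. Under TGFβ1 its difference was 0.18 (adjusted p = 0.798), and the test of the difference in response gave −1.35 (adjusted p = 0.588). The libraries of CSNK1E ranged from 14.7 to 121 normalized counts. Exon overlap with other genes was examined only for the 29 members, so it is not known for CSNK1E.

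TGFβ1 raised 8 and lowered 8 of the 48 in wt-GR cells (16.7% each, against 14.0% and 12.1% of all genes), and raised 7 and lowered 7 in S134A-GR cells (14.6% each, against 12.7% and 10.8%), shares close to those of all genes. PORCN, the acyltransferase that Wnt proteins need for secretion, rose by 0.53 and 0.43, and DVL1, a Dishevelled protein, by 0.66 and 0.40. PRICKLE1, a planar polarity protein, fell by 0.86 and by 0.74, and CTNNBIP1, an inhibitor of the β-catenin to TCF contact, fell by 0.74 and by 0.70. LGR5, an R-spondin receptor, fell by 1.35 in S134A-GR cells, and its change of −0.88 in wt-GR cells had an adjusted p of 0.0873. LGR4, also an R-spondin receptor, was the only one of the 48 to pass the test of a difference in response: it fell by 0.44 in wt-GR cells, from 3059 ± 268 to 2242 ± 48.6, and had a change of 0.09 in S134A-GR cells, from 1353 ± 26.1 to 1438 ± 41.4 (difference 0.53, adjusted p = 0.0126, limma). CTNNB1, the β-catenin gene, was added after its values were seen: it was lower in S134A-GR cells by −0.28 and −0.35, and rose with TGFβ1 by 0.22 in wt-GR and 0.15 in S134A-GR cells.

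Among 25 genes commonly cited as β-catenin targets, 20 reached a mean of 20, including LGR5 and KREMEN1, which the pathway list also holds. Between the lines 7 were higher and 8 lower under vehicle (35.0% and 40.0%, against 30.0% and 31.8% of all genes), and 6 and 8 under TGFβ1 (30.0% and 40.0%, against 28.0% and 30.7%). TGFβ1 raised 8 and lowered 6 in each line (40.0% and 30.0%), against 14.0% and 12.1% of all genes in wt-GR and 12.7% and 10.8% in S134A-GR cells. Of the 20, 0 differed in response at an adjusted p under 0.05 by limma, DESeq2 or edgeR (0.527% of all genes did by limma). At an unadjusted p under 0.05 there were 2, BMP4 and EPHB2, and the share of all genes at that limit was not computed. EPHB2, an ephrin receptor, rose by 1.20 in wt-GR and 1.04 in S134A-GR cells, and BMP4, a ligand of the TGFβ superfamily, fell by 1.04 and by 0.76. TCF4, a gene separate from TCF7L2, rose by 1.29 and 0.98, with a mean of 104 normalized counts over the libraries. Under vehicle VEGFA, an angiogenic growth factor, was lower in S134A-GR cells by −0.98 and TNFRSF19 higher by 0.99. Many of these genes also answer to other signals, TGFβ1 among them, and the list carries no measure of β-catenin itself.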

How the data were processed

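Libraries were paired-end TruSeq mRNA libraries of MDA-MB-231 cells. The authors used Trimmomatic for trimming, HISAT2 for alignment to hg38, featureCounts (Subread) for counts per gene and DESeq2 for normalization (version 1.22.2 per the submitters' processing notes, which also name FastQC 0.11.7). The deposited values are a signal, the normalized count per gene symbol and library. The annotation and the strand setting are not given in the sources used here, nor is whether a read pair was counted once; if each mate was counted, counting error is understated. In every library 100% of values were whole multiples of 1 step (tolerance 0.001), and division by that step gave back reads.

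Genes with at least 10 reads over the 12 libraries were tested (18579). Values were put on the scale log2(normalized count + 1). The added 1 shrinks the change of low genes, but a library without reads can enlarge it, as for WNT10A. All 4 groups were fitted together by limma 3.58.1 (R 4.3.3), with Benjamini-Hochberg adjustment over all genes tested. Folds are ratios of group means. An exact permutation test of a single gene with 3 against 3 libraries cannot go below 0.1. Alternatives were edgeR 4.0.16 and DESeq2 1.42.0 on recovered reads, TMM scaling, other pseudocounts and filters, a replicate block, only the groups compared, other minimum levels, and each library left out. The fit was tested on simulated data. Coordinates, exon lengths and overlaps are from GENCODE 44.

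The members and lists were chosen with earlier results of these data known. Values in every library were given for members called with an absolute change of 1 or more on the log2 scale, or called in the difference in response. Other members were given by fold change, and of the pathway and target lists up to 3 called genes in each direction of each comparison were named.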

Additional observations from a re-analysis of the deposited data

Results flagged for a closer look

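The TGFβ1 response differed between the lines, by a test of the difference itself, for 3 Wnt genes. The response in S134A-GR minus that in wt-GR cells was −0.75 on the log2 scale for WNT5B, 0.35 for DKK1 and −0.37 for WNT7B (limma, adjusted p = 0.000909, 0.0093 and 0.0256). WNT5B and DKK1 kept this call under every setting run, while that of WNT7B was lost when any of 9 libraries was left out. At an unadjusted p under 0.05, 6 of the 29 members differed in response. The share of all genes at that limit was not computed, so this count cannot be set against it. With 3 libraries in each group, single libraries were not tested for standing apart from their group.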

How the results depend on the processing

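Over 24 alternative settings, of which 23 applied to the difference in response, the number of Wnt genes called ranged from 13 to 18 between the lines under vehicle (16 as reported), from 14 to 17 under TGFβ1 (16), from 10 to 15 for TGFβ1 in wt-GR cells (14), from 7 to 11 in S134A-GR cells (9) and from 2 to 3 for the difference in response (3). No called gene changed direction. The lowest TGFβ1 counts, 10 and 7, came from fits of only the groups compared, which use fewer libraries. There FZD3, FZD5, TCF7L2 and WNT9A lost their call in wt-GR cells, and AXIN1 and TCF7 lost theirs in S134A-GR cells. Leaving out 1 library gave 13 to 17, 14 to 17, 12 to 15, 8 to 11 and 2 to 3. The library of wt-GR cells under vehicle at 0 for WNT10A gave the 13: without it WNT10A, WNT5B and ZNRF3 lost their call under vehicle, and WNT10A gained one under TGFβ1 (0.82, adjusted p = 0.0455, limma). With the replicate block the counts were 16, 15, 14, 9 and 3. Deviations of libraries with the same number had a mean r of 0.014 over 14425 genes (−0.055 to 0.13), so no pairing by number was seen. Such values cannot show whether libraries of the same number were handled together. Depth limits the members below 20 normalized counts, for which no fold change was read.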
